A study of Homo sapiens with 48 samples.

Results

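In TMD8 cells at 24 h, the transcriptome under 5 µM NGI-1 was compared directly with that under 50 nM acalabrutinib, without a vehicle library in the contrast. The samples were chosen by their labels alone: the 2 libraries of TMD8 treated with NGI-1 for 24 h and the 2 libraries of TMD8 treated with acalabrutinib for 24 h, 4 of the 48 libraries of the series. TMD8 and HBL1 are established lines of diffuse large B cell lymphoma (DLBCL) of the activated B cell-like type, and all libraries, controls included, came from cells engineered to carry Cas9. Besides NGI-1 and acalabrutinib the series holds DMSO vehicle and 20 nM copanlisib, a PI3K inhibitor, each in both lines at 3, 6 and 24 h with 2 libraries per group. Cultures were seeded at the same density in medium with 5% FBS. The labels do not say whether the 2 replicates of a group were separate cultures, so the p-values given here measure the spread between these libraries, which may be technical.

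NGI-1 inhibits the oligosaccharyltransferase, the enzyme of the endoplasmic reticulum (ER) that transfers a preassembled glycan to asparagine residues of new proteins. Proteins that fail to fold in the ER activate the unfolded protein response, in which the sensors IRE1, PERK and ATF6 raise chaperones, disulfide isomerases, ER-associated degradation and the transcription factors XBP1, ATF4 and CHOP. Acalabrutinib is a covalent inhibitor of BTK, the kinase that links the B cell receptor to NF-kB, and activated B cell-like lymphomas are known for chronic NF-kB activity that runs through BTK. The receptor chains and their coreceptors are themselves N-glycoproteins.

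Each of the 4 libraries held between 8622515 and 9463171 counted reads (7165377 to 11999050 over the 48). All 8 B cell line markers exceeded 1 CPM (read counts scaled to library size, here with TMM factors) in all 4, whereas 7 of 12 T and NK cell markers and 5 of 12 myeloid markers had 0 reads in all 4. The summed level of the T and NK list was 2.64 and 1.49 CPM with NGI-1 and 1.28 and 1.32 CPM with acalabrutinib, and that of the myeloid list 2.87 and 3.56 against 2.03 and 2.43 CPM. Of 13 stromal or epithelial markers 3 were at 0 in all 4 libraries and 6 exceeded 1 CPM, with CDH1 the highest, and the sum was 88.5 and 97.9 CPM with NGI-1 and 118 and 109 CPM with acalabrutinib. The part of these differences between groups in the results was not tested. The 2 acalabrutinib libraries differed more from each other (chi-square per degree of freedom 6.23) than the 2 NGI-1 libraries did (3.03). They also differed more than replicate 1 of NGI-1 and replicate 1 of acalabrutinib did (5.06), while the other 3 pairs across the compounds lay between 6.47 and 9.14.

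Fewer genes separated the compounds from each other than separated either from vehicle. Of 13881 genes tested, 182 differed between NGI-1 and acalabrutinib at an adjusted p under 0.05 (1.31%), which is what "called" means below. Higher with NGI-1 were 156 genes (1.12%), and lower were 26 (0.187%). At least 2-fold apart were 34 of the higher and 4 of the lower genes. The median absolute log2 fold change over all genes was 0.121, and the median signed change was 0.00. Against DMSO, whose 2 libraries both comparisons share, 4255 genes (30.7%) were called with NGI-1 and 4301 (31.0%) with acalabrutinib, each with a median absolute log2 fold change of 0.294. In these bulk samples fewer cells of a type and less RNA per cell cannot be told apart. The test was edgeR's quasi-likelihood F test with Benjamini-Hochberg adjustment, and errors of log2 fold changes are standard errors. The count fell to 90 without NGI-1 replicate 1, 99 without NGI-1 replicate 2, 132 without acalabrutinib replicate 1 and 93 without acalabrutinib replicate 2. Called with each of the 4 left out in turn were 53 genes, 51 higher and 2 lower with NGI-1.

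**Figure D1:**
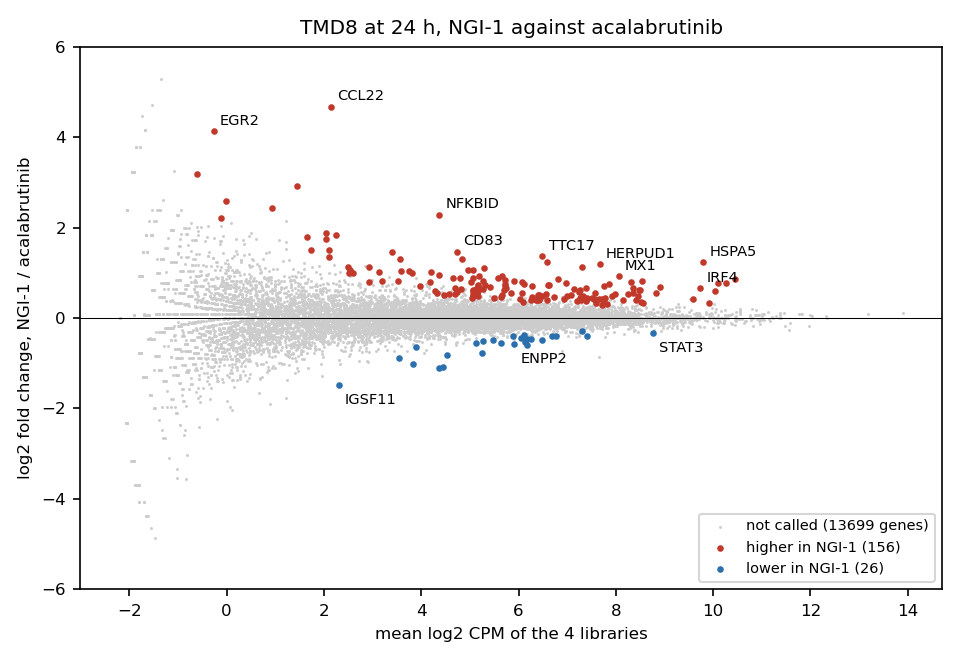
Log2 fold change of NGI-1 over acalabrutinib (y axis) against the mean log2 CPM of the 4 libraries (x axis) for the 13881 genes tested in TMD8 at 24 h, with called genes in red (higher with NGI-1, 156) and blue (lower, 26). Red points reach up to CCL22 at 4.68 and lie along the upper edge of the grey cloud, and blue points reach down to IGSF11 at -1.48.

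Among the 156 genes called higher were 11 of 19 ER chaperones and co-chaperones, 7 of 19 disulfide isomerases and oxidases and 15 of 39 NF-kB targets. Upstream sequence is shown for the 5 called members of these lists with the largest change whose promoter held a searched motif (CCL22, CXCL10, NFKBID, CD83 and SDF2L1), and for HSPA5. The sequences are the 250 bases before the start of the gene in RefSeq (GRCh38.p14), read 5′ to 3′ on the strand of the gene. They lie at chr16:57358533-57358782 (plus strand), chr4:76023498-76023747 (minus), chr19:35899744-35899993 (minus), chr6:14117522-14117771 (plus), chr22:21642052-21642301 (plus) and chr9:125241344-125241593 (minus). Capitals mark a match to the ER stress element ERSE or ERSE-II in SDF2L1 and HSPA5, and to the Rel consensus, bound by NF-kB, in the others.
HSPA5: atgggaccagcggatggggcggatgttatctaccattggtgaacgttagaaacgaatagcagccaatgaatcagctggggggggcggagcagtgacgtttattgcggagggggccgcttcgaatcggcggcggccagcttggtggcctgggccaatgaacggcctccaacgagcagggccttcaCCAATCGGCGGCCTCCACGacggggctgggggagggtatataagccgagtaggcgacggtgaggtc
SDF2L1: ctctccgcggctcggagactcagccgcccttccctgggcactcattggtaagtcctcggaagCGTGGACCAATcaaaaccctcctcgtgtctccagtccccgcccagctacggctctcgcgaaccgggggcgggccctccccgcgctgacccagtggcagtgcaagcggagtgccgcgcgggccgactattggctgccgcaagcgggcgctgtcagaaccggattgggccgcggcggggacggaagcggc
NFKBID: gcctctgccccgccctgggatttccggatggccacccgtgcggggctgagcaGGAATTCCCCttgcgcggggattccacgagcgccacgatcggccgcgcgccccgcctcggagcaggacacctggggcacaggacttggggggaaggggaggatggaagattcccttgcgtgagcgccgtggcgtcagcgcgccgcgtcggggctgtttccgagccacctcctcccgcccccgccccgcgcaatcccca
CCL22: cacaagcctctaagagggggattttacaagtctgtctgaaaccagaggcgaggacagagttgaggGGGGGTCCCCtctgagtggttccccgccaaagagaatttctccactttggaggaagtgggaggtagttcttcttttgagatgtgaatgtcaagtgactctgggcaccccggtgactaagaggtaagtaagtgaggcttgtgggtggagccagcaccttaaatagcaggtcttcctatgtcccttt
CXCL10: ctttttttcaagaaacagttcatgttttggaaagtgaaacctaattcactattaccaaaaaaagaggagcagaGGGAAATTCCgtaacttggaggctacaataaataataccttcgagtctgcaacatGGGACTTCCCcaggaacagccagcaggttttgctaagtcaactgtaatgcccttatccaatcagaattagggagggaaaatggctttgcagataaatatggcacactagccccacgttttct
CD83: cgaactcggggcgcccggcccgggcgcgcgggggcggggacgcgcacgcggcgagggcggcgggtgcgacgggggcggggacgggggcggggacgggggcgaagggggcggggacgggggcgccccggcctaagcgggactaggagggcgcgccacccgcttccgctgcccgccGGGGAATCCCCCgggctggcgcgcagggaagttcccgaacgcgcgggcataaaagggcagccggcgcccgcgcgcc

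ERSE (CCAAT and CCACG with 9 bases of any kind between them, either strand) occurred in 0.0769% of 35116 promoters of 300 bases and in 5 of the 17 ER chaperone genes with a promoter in the table, namely CALR, CANX, CRELD2, HSP90B1 and HSPA5. ERSE-II (ATTGG and CCACG with 1 base of any kind between them, either strand) occurred in 0.0541% of all promoters, in the chaperone genes HYOU1 and SDF2L1 and in HERPUD1. The UPR element UPRE (TGACGTGG, either strand) occurred in 0.729% of all promoters and in 1 of these 17 chaperone genes, HYOU1, where it overlaps an ERSE-II match. A Rel consensus match was present in 5.91% of all promoters and in 17 of 33 NF-kB target genes (51.5%), among them 7 of the 13 that were called and had a promoter in the table. A match describes the sequence and does not show that a factor bound there.

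Chaperones of the ER lumen were higher with NGI-1 as a group. Of 19 tested, 11 were called higher and none lower, with a median log2 fold change of 0.74 beside 0.00 over all genes. HSPA5 (BiP), the main Hsp70 chaperone of the ER and a sensor of its load, stood at 1421 and 1298 CPM with NGI-1, at 612 and 540 CPM with acalabrutinib and at 560 and 463 CPM with DMSO. The NGI-1 libraries were the high ones and did not overlap with the others, while the acalabrutinib and DMSO ranges overlapped. The log2 fold change between the compounds was 1.24 ± 0.14 (adjusted p 8.1e-08, n = 2 and 2 libraries, edgeR). SDF2L1, a cochaperone of ER Hsp40 proteins whose promoter is shown above, was at 45.1 and 43.9 CPM with NGI-1 and at 17.6 and 18.2 CPM with acalabrutinib (1.31 ± 0.16). ARMET (now MANF), a secreted ER stress factor, reached 145 and 151 CPM with NGI-1 and 62.3 and 62.6 CPM with acalabrutinib (1.25 ± 0.16), and with DMSO 59.8 and 63 CPM. For ARMET the change lay on the NGI-1 side alone, since acalabrutinib was within 0.02 ± 0.17 (log2) of DMSO. HYOU1, a large Hsp70-like chaperone (1.14 ± 0.15), CRELD2 (1.11 ± 0.12), HSP90B1 (GRP94, 0.86 ± 0.11) and the lectin chaperone CALR (calreticulin, 0.77 ± 0.09) were called too, as were CANX, DNAJB11, DNAJC3 and PPIB. DNAJC3 lost its call without NGI-1 replicate 1 or acalabrutinib replicate 2, and the other 10 kept theirs with any library left out.

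Among 19 disulfide isomerases and ERO1 oxidases, 7 were called higher and none lower, but the median of the list was 0.06, so the difference was carried by those 7. PDIA4, an isomerase of the BiP complex, was at 448 and 393 CPM with NGI-1, 264 and 223 CPM with acalabrutinib and 176 and 156 CPM with DMSO. The 3 groups of PDIA4 did not overlap, and acalabrutinib lay between DMSO and NGI-1. The log2 fold change between the compounds was 0.79 ± 0.12 (adjusted p 5.4e-05). PDIA3, the isomerase that works on glycoproteins with calreticulin and calnexin (0.69 ± 0.10), PDIA6 (0.63 ± 0.07), P4HB, TXNDC5, PDIA2 and the oxidase ERO1LB (1.13 ± 0.30) completed the 7. PDIA6 differed from DMSO in opposite directions, 0.43 ± 0.07 with NGI-1 and -0.20 ± 0.07 with acalabrutinib. PDIA2, named after its values were seen because its mean level was under the limit of 5 CPM, was at 6.67 CPM in both NGI-1 libraries and at 0.959 and 0.773 CPM with acalabrutinib. The call of ERO1LB was lost without either NGI-1 library or acalabrutinib replicate 1, that of P4HB without acalabrutinib replicate 2 and that of TXNDC5 without NGI-1 replicate 1.

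ER-associated degradation, which returns misfolded proteins to the cytosol, had 5 of 24 members called higher and none lower (median 0.06). HERPUD1, a membrane adaptor of the HRD1 ligase, stood at 314 and 303 CPM with NGI-1 against 145 and 125 CPM with acalabrutinib and 151 and 147 CPM with DMSO (1.19 ± 0.15, adjusted p 1.2e-06). EDEM1, which extracts misfolded glycoproteins by trimming mannose, was at 168 and 162 CPM against 98.2 and 94.9 CPM (0.77 ± 0.14), and its DMSO libraries lay between at 127 and 118 CPM. DERL3 (0.93 ± 0.21), DERL2 and SEL1L were the others. DERL3 lost its call without NGI-1 replicate 2 or acalabrutinib replicate 1, and DERL2 and SEL1L did so without any 1 of the 4 libraries.

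Of 16 sensors and factors of the response, XBP1, ATF4 and DDIT3 were called higher and MBTPS1 lower (median 0.26). XBP1, the factor spliced by IRE1, was at 129 and 121 CPM with NGI-1, 73.7 and 75.6 CPM with acalabrutinib and 45.6 and 45.4 CPM with DMSO. XBP1 was thus above DMSO with both compounds, by 1.46 ± 0.13 and 0.71 ± 0.13 (log2), and higher with NGI-1 by 0.74 ± 0.13. ATF4, the factor translated after PERK or GCN2 activation, was at 193 and 189 CPM with NGI-1, 128 and 123 CPM with acalabrutinib and 206 and 200 CPM with DMSO. For ATF4 the acalabrutinib libraries were the ones apart from DMSO. DDIT3 (CHOP) was at 18.3 and 15.7 CPM against 5.33 and 7.06 CPM, with 6.35 and 8.30 CPM in DMSO. MBTPS1, the protease that cleaves ATF6, was 0.38 ± 0.09 lower with NGI-1 than with acalabrutinib on the log2 scale, though both compounds were above DMSO (0.50 and 0.88). Without NGI-1 replicate 1 or either acalabrutinib library DDIT3 was not called, and ATF4 and MBTPS1 were not called without any 1 of the 4.

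Targets of ATF4 and CHOP with the tRNA synthetases were next, with 7 of 38 called higher and none lower (median 0.32). The level of the list against DMSO differed between the compounds, with 5 members higher and 11 lower with NGI-1 (median -0.10) and 2 higher and 24 lower with acalabrutinib (median -0.54). CARS, the cysteinyl-tRNA synthetase, was at 174 and 180 CPM with NGI-1, 116 and 110 CPM with acalabrutinib and 290 and 298 CPM with DMSO (0.65 ± 0.07, adjusted p 8.1e-08). Both compounds lowered CARS, and acalabrutinib lowered it further. SLC1A5, a glutamine transporter, was at 189 and 183 CPM with NGI-1 and 193 and 184 CPM with DMSO, and lower at 138 and 110 CPM with acalabrutinib. AARS (0.53 ± 0.10) and the factor ATF5 (0.77 ± 0.15) were called as well. AARS and SLC1A5 were not called without acalabrutinib replicate 2, nor ATF5 without NGI-1 replicate 2. WARS (adjusted p 0.038) and SLC7A5 (0.048) were higher by 0.43 ± 0.11 each and VLDLR by 0.99 ± 0.27. SLC7A5 and VLDLR were not called without any 1 of the 4 libraries, nor WARS without NGI-1 replicate 1 or 2 or acalabrutinib replicate 2.

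Of the target of NGI-1 itself, only the RNA of its subunits was measured. Of 12 oligosaccharyltransferase subunits 4 were called higher and none lower (median 0.22). STT3A, the catalytic subunit that acts during translocation, was at 92.4 and 89.8 CPM with NGI-1 and 70.9 and 61 CPM with acalabrutinib (0.47 ± 0.10). Its DMSO libraries lay between at 81.9 and 72 CPM, and neither compound was called against them (0.25 ± 0.10 with NGI-1 and -0.22 ± 0.10 with acalabrutinib). STT3B, the catalytic subunit that acts after it, was at 181 and 176 CPM against 138 and 126 CPM (0.44 ± 0.08), with 119 and 118 CPM in DMSO. RPN1 (0.42 ± 0.09) and DDOST were the others, and the adjusted p of DDOST was just under the threshold. STT3B lost its call without acalabrutinib replicate 2, STT3A without that library or NGI-1 replicate 1, RPN1 without that library or NGI-1 replicate 2, and DDOST without any 1 of the 4.

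Enzymes that build the lipid-linked glycan were mostly not called, with ALG3 alone of 33 higher (0.48 ± 0.10, median of the list 0.17). In glycan trimming, PRKCSH and LGALS3 were called higher among 27 (median 0.01). PRKCSH, the noncatalytic subunit of glucosidase II, which trims glucose from new glycans, was at 421 and 399 CPM with NGI-1, 263 and 254 CPM with acalabrutinib and 229 and 252 CPM with DMSO (0.66 ± 0.08, adjusted p 3.4e-07). The NGI-1 libraries stood apart from the other 4. LGALS3 (galectin-3) was higher by 0.67 ± 0.15, a call lost without NGI-1 replicate 2 or either acalabrutinib library. Of 46 genes of the translocon and of vesicle transport, SEC61A1 (0.53 ± 0.10), TRAM1 (0.43 ± 0.10) and SPCS3 (0.32 ± 0.07) were called higher and none lower (median 0.09). SEC61A1, the channel itself, lost its call without acalabrutinib replicate 2, SPCS3 without NGI-1 replicate 1 or acalabrutinib replicate 1, TRAM1 without any 1 library and ALG3 without NGI-1 replicate 1 or acalabrutinib replicate 2.

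**Figure D2:**
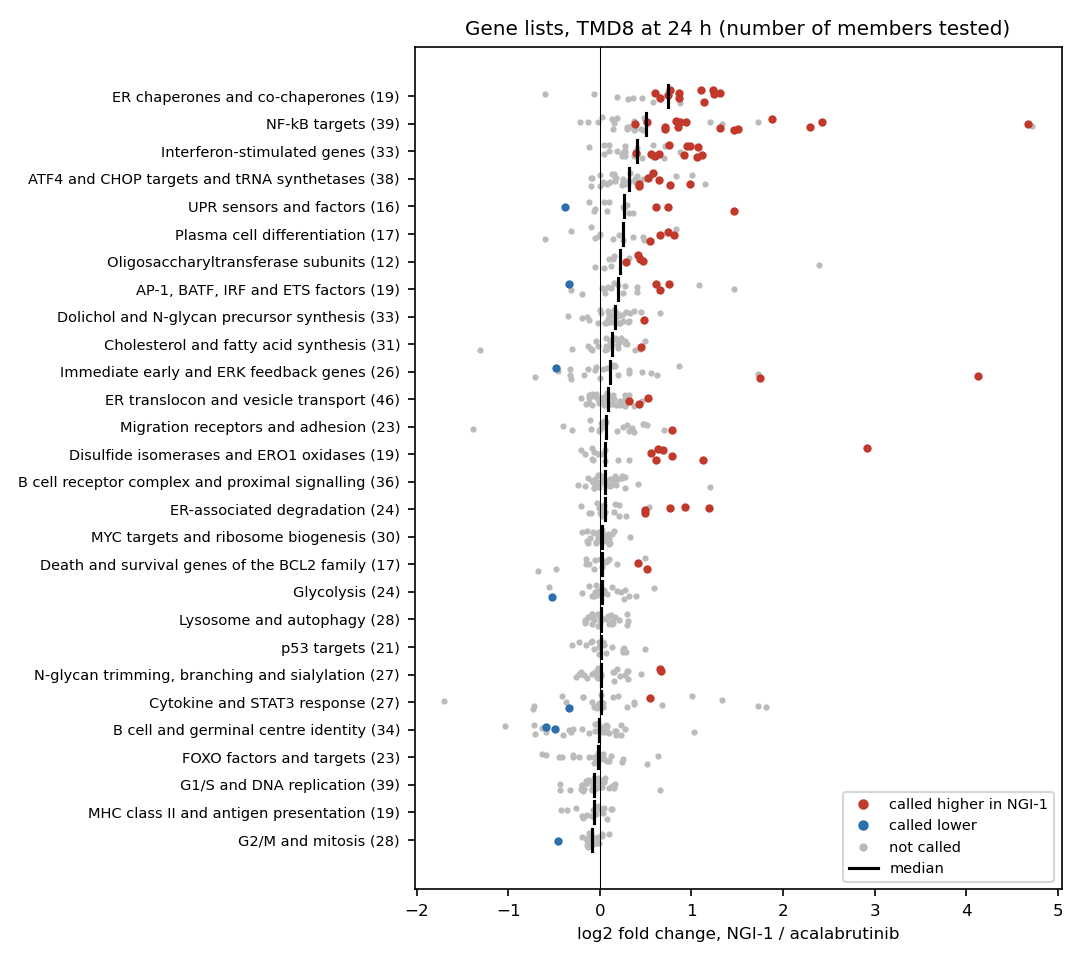
Log2 fold change of NGI-1 over acalabrutinib (x axis) for each tested member of 28 gene lists in TMD8 at 24 h, 1 point per gene, red or blue where called, with the median of each list as a bar and the number of members tested in brackets. ER chaperones (median 0.74), NF-kB targets (0.50) and interferon-stimulated genes (0.41) sit at the top, and the lists of the cell cycle, MYC targets and the B cell receptor lie around 0.

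NF-kB target genes were the other group with many calls. Of 39 tested, 15 were higher with NGI-1 and none lower (median 0.50). Against the shared DMSO libraries, 17 were lower and 3 higher with NGI-1 (median -0.39), and 29 were lower and 1 higher with acalabrutinib (median -0.82). Over all genes 14.9% were called lower with NGI-1 and 15.5% with acalabrutinib in those comparisons.

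CCL22, a chemokine that attracts T cells through CCR4, showed the largest log2 fold change of the 182 called genes. Its level was 20.9 and 18.6 CPM with NGI-1, 0.640 and 0.883 CPM with acalabrutinib and 28.1 and 35 CPM with DMSO. Both acalabrutinib libraries were low and neither NGI-1 library came near them, and the log2 fold change was 4.68 ± 0.59 (adjusted p 1e-06). Copanlisib, at 3.57 and 2.05 CPM, lay between the other compounds. NFKBID, an atypical IkB protein that is itself induced by NF-kB, was at 49.3 and 41.5 CPM with NGI-1, 7.46 and 11.1 CPM with acalabrutinib and 48 and 47.8 CPM with DMSO (2.29 ± 0.20, adjusted p 5.2e-10). For NFKBID the NGI-1 and DMSO ranges overlapped and the change lay on the acalabrutinib side. CD83, a membrane protein of activated B cells, was at 47.7 and 41.1 CPM with NGI-1, 18.8 and 13.1 CPM with acalabrutinib and 83.7 and 57.5 CPM with DMSO (1.47 ± 0.22, adjusted p 2.7e-05). CD83 was below DMSO with both compounds, and further with acalabrutinib.

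Among the genes that make up or restrain the NF-kB pathway, NFKB2, RELB, NFKBIA, NFKBID and TNFAIP3 were called higher with NGI-1 than with acalabrutinib, and NFKB1, REL, NFKBIB, NFKBIE, NFKBIZ, TNIP1, TNIP2 and CYLD were not called. NFKB2, the precursor of the p52 subunit, was at 71.9 and 68.2 CPM with NGI-1, 37.5 and 35.3 CPM with acalabrutinib and 82.8 and 80.9 CPM with DMSO (0.94 ± 0.11, adjusted p 5.4e-07). TNFAIP3 (A20), a deubiquitinase that limits the pathway, was at 73.7 and 68 CPM against 39.6 and 39 CPM, with 94.2 and 82.6 CPM in DMSO (0.85 ± 0.16). In both genes the acalabrutinib libraries were the lowest of the 3 groups, and no 2 groups overlapped. NFKBIA, the classical inhibitor IkBα, was higher by 0.88 ± 0.18 (adjusted p 0.0027), a call lost without NGI-1 replicate 1 or acalabrutinib replicate 2. RELB, CD40, PLEK and CFLAR were called whichever library was left out. BCL2L1 (0.52 ± 0.11) lost its call without NGI-1 replicate 1 or acalabrutinib replicate 2.

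Of the cytokine genes in the list, EBI3, TNF, CXCL10, LTA, IL6, IL10 and IL12B were called below DMSO with both compounds. LTB, which encodes lymphotoxin beta, was called above DMSO with both (1.68 ± 0.31 with NGI-1 and 1.81 ± 0.31 with acalabrutinib) and was not called between the compounds (-0.13 ± 0.26). EBI3, a subunit of IL-27 and IL-35, was at 5.75 and 9.54 CPM with NGI-1, 2.45 and 1.66 CPM with acalabrutinib and 22.5 and 29.3 CPM with DMSO (1.88 ± 0.33), and was not called without NGI-1 replicate 2. TNF was at 8.39 and 5.52 CPM against 2.56 and 2.32 CPM, with 35 and 24.4 CPM in DMSO (1.51 ± 0.32), and MIRHG2, the host gene of miR-155, at 17.9 and 18.6 CPM against 6.18 and 8.61 CPM, with 55.5 and 49.7 CPM in DMSO (1.31 ± 0.24). TNF kept its call only without NGI-1 replicate 2, and MIRHG2 lost it without acalabrutinib replicate 1. CXCL10, named after its values were seen, was at 3.56 and 4.14 CPM against 0.533 and 0.883 CPM (2.43 ± 0.41). IL10 was at 4.02 and 2.87 CPM against 0.746 and 1.32 CPM and was not called (1.73 ± 0.55, adjusted p 0.15), and IL4I1 was at 1.61 and 2.64 CPM against 0.533 and 0.662 CPM (1.81 ± 0.60, adjusted p 0.17). Both had been above 18 CPM in each DMSO library. IL10 passed with DESeq2 (adjusted p 0.043), in a fit of TMD8 alone (0.016) and with no filter on low counts (0.00047), and IL4I1 with DESeq2 (0.023) and no filter (0.0056).

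**Figure D3:**
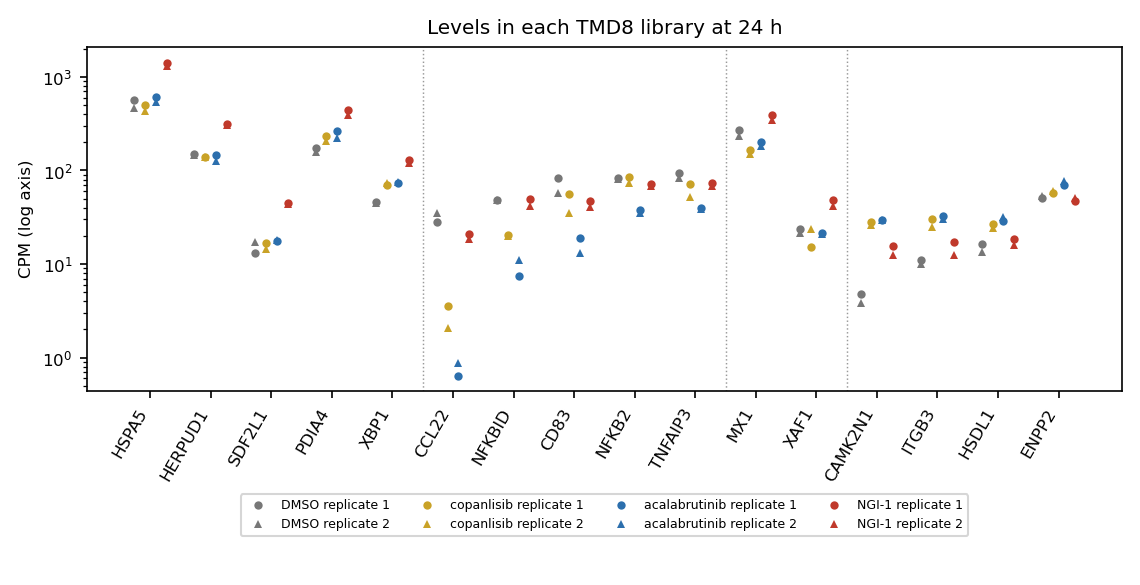
CPM on a log axis (y) in each of the 8 TMD8 libraries at 24 h for 16 named genes (x), with DMSO, copanlisib, acalabrutinib and NGI-1 by colour and replicates 1 and 2 as circles and triangles. HSPA5, HERPUD1 and SDF2L1 are high in NGI-1 alone, while PDIA4 and XBP1 are highest in NGI-1 and above DMSO with the other compounds too. NFKBID and CCL22 are lowest in acalabrutinib, with copanlisib next. The genes at the right, such as HSDL1, are highest in acalabrutinib, also with copanlisib next.

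Immediate early genes follow receptor and ERK signalling within minutes, and were listed together with feedback genes of ERK. This list had 2 of 26 members called higher, EGR2 and DUSP2, and PHLDA1 called lower (median 0.11). DUSP2, a nuclear phosphatase of ERK, was at 7.59 and 6.67 CPM with NGI-1, 2.13 and 2.10 CPM with acalabrutinib and 21.4 and 21.8 CPM with DMSO (1.75 ± 0.29, adjusted p 0.00017). EGR2 had 37 reads in the NGI-1 libraries and 2 in the acalabrutinib libraries, a ratio of 19.6 at scaled depth with an exact 95% interval of 5.06 to 168 that covers counting error only. Both genes were far below DMSO with either compound. EGR2 (adjusted p 0.0066) was not called without NGI-1 replicate 1 or acalabrutinib replicate 2. EGR1 was at 2.87 and 1.15 CPM against 0.320 and 0.883 CPM and was not called (1.73 ± 1.28, adjusted p 0.83), though it was with no filter on low counts (0.017). PHLDA1 was at 36 and 38.5 CPM against 52.2 and 52 CPM, a call lost without any 1 library.

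The transcription factors IRF4 and BATF were below DMSO with both compounds, and less so with NGI-1. IRF4, on which these lymphoma lines depend, was at 1141 and 1000 CPM with NGI-1, 737 and 620 CPM with acalabrutinib and 1854 and 1558 CPM with DMSO. The 3 groups of IRF4 did not overlap, and its log2 fold change between the compounds was 0.66 ± 0.12 (adjusted p 0.00081). BATF, its partner at composite elements, was at 67.5 and 61.4 CPM against 42.8 and 41.8 CPM, with 155 and 162 CPM in DMSO (0.61 ± 0.11). STAT3 went the other way, at 406 and 368 CPM with NGI-1 and 543 and 440 CPM with acalabrutinib (-0.34 ± 0.09), with 587 and 553 CPM in DMSO. IRF4 was not called without NGI-1 replicate 1 or acalabrutinib replicate 2, nor BATF without NGI-1 replicate 1. STAT3 was not called without NGI-1 replicate 1 or 2 or acalabrutinib replicate 1. In the list of AP-1, BATF, IRF and ETS factors, 3 of 19 were called higher and 1 lower (median 0.20).

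Of 17 plasma cell differentiation genes, XBP1, IRF4, SLAMF7 and PIM2 were called higher and none lower (median 0.25), and XBP1 and IRF4 are counted above as well. SLAMF7, a surface receptor of plasma cells, was at 47.1 and 53.3 CPM against 28.7 and 28.8 CPM, with 53.4 and 63.8 CPM in DMSO (0.81 ± 0.13). PIM2, a survival kinase, was at 405 and 391 CPM against 283 and 261 CPM, with 354 and 350 CPM in DMSO (0.55 ± 0.09). PRDM1 (Blimp-1), the factor that drives this differentiation, was not called (-0.10 ± 0.09). CXCR5, the receptor that guides B cells to follicles, was the 1 called gene among 23 migration receptors, at 94.6 and 82.8 CPM against 56.2 and 46.3 CPM, with 108 and 96.2 CPM in DMSO (0.79 ± 0.14). KIF26B, a kinesin family member, stood at 8.74 and 8.28 CPM against 2.45 and 2.32 CPM, with 14.5 and 13.4 CPM in DMSO (1.83 ± 0.34). MYOCD, a coactivator of muscle genes, was at 27.8 and 24.5 CPM against 15.9 and 10 CPM, with 28.2 and 26.7 CPM in DMSO (1.01 ± 0.25), and kept its call only without acalabrutinib replicate 1. Among 17 BCL2 family genes BCL2 was called (0.42 ± 0.09) beside BCL2L1, and BCL2 kept its call only without NGI-1 replicate 2.

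Interferon-stimulated genes were the third group. Of 33 tested, 11 were called higher with NGI-1 and none lower (median 0.41). Against DMSO, 23 were higher and none lower with NGI-1 (median 0.53), and 11 were higher and 3 lower with acalabrutinib (median 0.07), where 15.7% and 15.5% of all genes were called higher. MX1, an antiviral GTPase, was at 387 and 348 CPM with NGI-1, 204 and 183 CPM with acalabrutinib and 268 and 233 CPM with DMSO (0.92 ± 0.11, adjusted p 4.5e-07). It lay above DMSO with NGI-1 by 0.55 ± 0.11 and below it with acalabrutinib by -0.37 ± 0.11, each called. XAF1 was at 48.3 and 41.3 CPM against 21.5 and 21.2 CPM, with 23.7 and 21.6 CPM in DMSO (1.07 ± 0.17), and EPSTI1 at 29 and 27.5 CPM against 14.8 and 14.5 CPM, with 15.2 and 14.2 CPM in DMSO (0.95 ± 0.15). For XAF1 and EPSTI1 the NGI-1 libraries alone stood apart. MX1, XAF1 and EPSTI1 were called with any library left out, and IFI35, IFI44L, IFIH1, IFIT3, OAS2, OASL and SAMD9L each lost the call without NGI-1 replicate 1 and also without at least 1 other library. The count of the list was 4 without NGI-1 replicate 1, 7 without NGI-1 replicate 2 and 5 without acalabrutinib replicate 2.

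TTC17, a protein with tetratricopeptide repeats, had the smallest adjusted p of all genes. It was at 145 and 143 CPM with NGI-1, 52.7 and 59.1 CPM with acalabrutinib and 40 and 38.1 CPM with DMSO (1.37 ± 0.09, adjusted p 9.3e-14). The NGI-1 libraries stood far above the rest, and acalabrutinib was modestly above DMSO (0.52). LOXL2, a lysyl oxidase, was at 52 and 45.3 CPM against 27.2 and 19.2 CPM, with 34.8 and 26.9 CPM in DMSO (1.07 ± 0.15). It was above DMSO with NGI-1 (0.66) and below with acalabrutinib (-0.40), each called, as was the metalloprotease ADAM8 (0.46 and -0.42). The acalabrutinib calls of LOXL2 and ADAM8 were just under the threshold (edgeR adjusted p 0.042 and 0.049). ADAM8 (0.89 ± 0.16) was not called between the compounds without NGI-1 replicate 2 or acalabrutinib replicate 1. SLC38A5, an amino acid transporter, was at 65.7 and 63.7 CPM against 36.7 and 33 CPM, with 92.1 and 86.1 CPM in DMSO (0.89 ± 0.10), and ASMT, known as an enzyme of melatonin synthesis, at 40 and 46 CPM against 26.8 and 22.6 CPM, with 97.4 and 103 CPM in DMSO (0.80 ± 0.12). In both genes NGI-1 lay between acalabrutinib and DMSO. C3orf37 had 19 reads with NGI-1 and 2 with acalabrutinib, a ratio of 10.1 with an exact 95% interval of 2.43 to 89.1 for counting error, and lost its call without any 1 library and with DESeq2 (adjusted p 0.095). INSIG1, a feedback protein of sterol synthesis in the ER, was the 1 called gene of 31 for cholesterol and fatty acid synthesis (0.45 ± 0.12), a call lost without any 1 library.

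**Figure D4:**
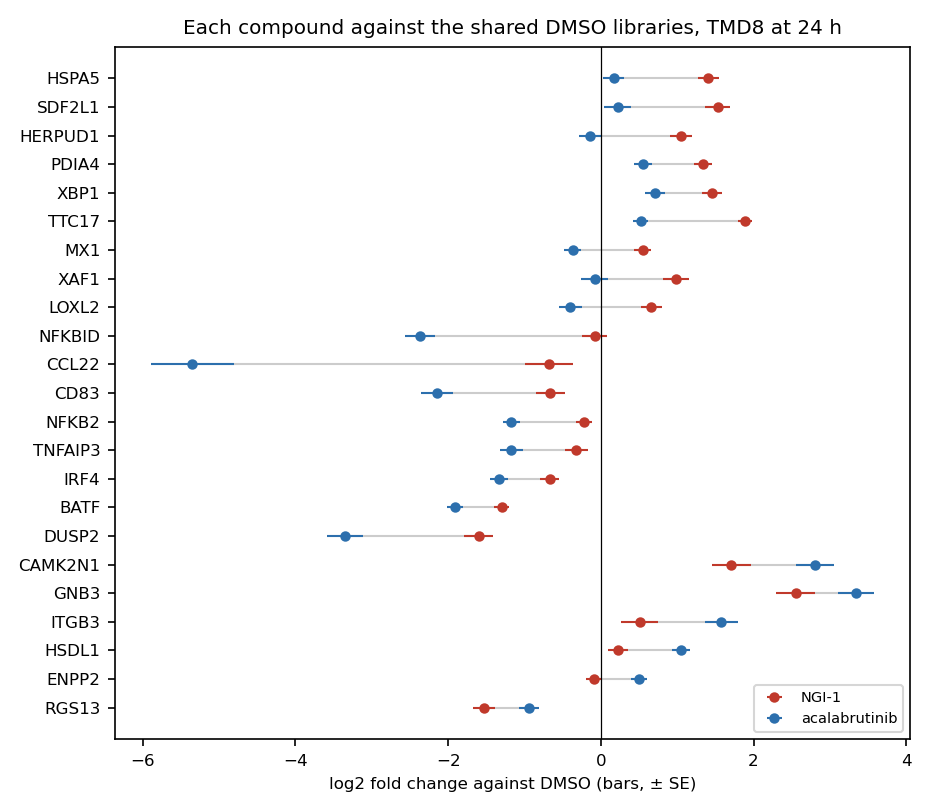
Log2 fold change against the 2 shared DMSO libraries (x axis, points with standard errors) with NGI-1 in red and acalabrutinib in blue for 23 named genes in TMD8 at 24 h, the grey line joining the 2 values of a gene. The values show which compound carried a difference: NGI-1 for HSPA5 and XAF1, acalabrutinib for NFKBID and HSDL1, and both in opposite directions for MX1 and LOXL2.

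Of the 26 genes lower with NGI-1 no list held more than 2. HSDL1, a hydroxysteroid dehydrogenase-like protein, and ENPP2 (autotaxin), which makes lysophosphatidic acid, were the 2 called with any library left out. HSDL1 was at 18.6 and 15.9 CPM with NGI-1, 29 and 32.1 CPM with acalabrutinib and 16.2 and 13.4 CPM with DMSO (-0.82 ± 0.12, adjusted p 1.3e-05). ENPP2 was at 47.5 and 50.5 CPM against 69.7 and 77.2 CPM, with 51 and 52.9 CPM in DMSO (-0.58 ± 0.11). In both genes the NGI-1 libraries lay near the DMSO ones and the acalabrutinib libraries were high. CAMK2N1, an inhibitor of CaM kinase II, was at 15.4 and 12.4 CPM with NGI-1, 29.6 and 29.9 CPM with acalabrutinib and 4.73 and 3.81 CPM with DMSO (-1.10 ± 0.22). ITGB3, the integrin β3 chain, was at 17.1 and 12.5 CPM against 32.3 and 30.2 CPM, with 11 and 9.92 CPM in DMSO (-1.08 ± 0.21). CAMK2N1 was above DMSO with both compounds, and ITGB3 was called above it with acalabrutinib only. Each of the pair lost its call without NGI-1 replicate 2. IGSF11 (-1.48 ± 0.30), HTR3A (-1.02 ± 0.20), ALOX5 (-0.89 ± 0.21), the G protein subunit GNB3 (-0.78 ± 0.20), NAIP (-0.64 ± 0.17), RGS13 (-0.59 ± 0.14), CHST2 (-0.56 ± 0.13), VNN2 (-0.55 ± 0.13), PFKFB3 (-0.52 ± 0.14), TLR4 (-0.51 ± 0.13), the elongation factor gene ELL3 (-0.49 ± 0.11) and the phosphatase CDC25B (-0.46 ± 0.10) were also lower. Each of these 12 calls was lost without 2 or more of the 4 libraries, and NAIP was not called with DESeq2 (adjusted p 0.12). Unlike the other 11, RGS13, a regulator of chemokine receptor signalling in germinal centre B cells, was below DMSO with both compounds, at 58.2 and 60.3 CPM with NGI-1 and 74.3 and 105 CPM with acalabrutinib against 166 and 177 CPM with DMSO.

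Several programmes that moved strongly from DMSO had no or few calls between the compounds. All 30 tested MYC targets and ribosome biogenesis genes were lower than DMSO with NGI-1 and 29 were with acalabrutinib (medians -0.62 and -0.61), while none of them was called between the compounds (median 0.02). MYC itself was at 104 and 82.5 CPM with NGI-1 and 93.2 and 72.7 CPM with acalabrutinib, overlapping ranges, with 218 and 185 CPM in DMSO (0.17 ± 0.15 between the compounds). Of 39 genes of G1/S and DNA replication 30 were lower than DMSO with NGI-1 and 27 with acalabrutinib, and none was called between them (median -0.06). Glycolysis had 18 and 19 of 24 lower than DMSO, and only PFKFB3 called between the compounds. At an unadjusted p under 0.05 were none of the MYC target list and 2 of the G1/S list (8.78% of all genes), and DESeq2 called none of either. A missing call does not show that the compounds act alike.

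None of 36 genes of the B cell receptor complex and its proximal signalling was called between NGI-1 and acalabrutinib (median 0.06), with 20 and 22 of them higher than DMSO. CD79B, a signalling chain of the receptor, was at 658 and 661 CPM with NGI-1 and 620 and 561 CPM with acalabrutinib, each well above the 244 and 244 CPM of DMSO, and differed between the compounds by 0.16 ± 0.07 (adjusted p 0.47). BTK, the target of acalabrutinib, was at 501 and 484 CPM against 516 and 478 CPM (-0.01 ± 0.06), and BCL6 at 21.6 and 25.6 CPM against 24.3 and 24.2 CPM (-0.04 ± 0.15). NLRP7, at 1.72 and 0.763 CPM in DMSO, rose to 12.9 and 11.5 CPM with NGI-1 and 18.3 and 11.3 CPM with acalabrutinib and did not pass the test between them (-0.28 ± 0.22). FOXO targets, MHC class II, p53 targets and lysosome genes had no call between the compounds either. At an unadjusted p under 0.05 were 8 receptor genes, 5 of 23 FOXO targets, 1 of 19 MHC class II genes, 3 of 21 p53 targets and 2 of 28 lysosome genes. Over all genes this share was 8.78%. DESeq2 called 1 receptor gene, 1 FOXO target and none of the others.

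The same contrast was read in TMD8 at 3 and 6 h and in HBL1 at 24 h, from other libraries. Higher with NGI-1 were 130 genes at 3 h (0.937%), 335 at 6 h (2.41%) and 213 in HBL1 (1.53%). Of the 156 genes higher at 24 h in TMD8, 52 were called higher at 3 h, 85 at 6 h and 44 in HBL1, and these are 40%, 25.4% and 20.7% of the genes higher in each of those sets. Lower in HBL1 were 6 of the 156, where 1.65% of all genes were lower. Among the 26 lower genes, 4 were called lower at 6 h, 2 in HBL1 and none at 3 h, where 0.980%, 1.65% and 0.0648% of all genes were lower.

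ER chaperones were also higher with NGI-1 at 3 and 6 h and in HBL1. The chaperone list had 12 of 19 called higher at 3 h (median 0.81), 14 at 6 h (median 1.05) and 11 in HBL1 (median 0.57), and none lower. HSPA5 was higher by 2.39 ± 0.14 at 3 h, 2.34 ± 0.14 at 6 h and 1.24 ± 0.14 at 24 h in TMD8, and by 1.09 ± 0.14 in HBL1. The difference between 24 and 3 h was itself called for HSPA5 (-1.15 ± 0.19, adjusted p 0.0014) and XBP1 (-1.17 ± 0.18, adjusted p 0.00083), among 19 genes (0.137%), and held with any library left out. In HBL1, XBP1 was at 0.07 ± 0.12. Between the lines it differed by 0.68 ± 0.17 (adjusted p 0.041), a call lost when any 1 of the 8 libraries was left out. No chaperone of the list was called for the difference between lines. TTC17 grew with time, from 0.38 at 3 h and 0.60 at 6 h to 1.37 at 24 h (24 h minus 3 h 0.99 ± 0.13, adjusted p 5.2e-05), and was 1.48 ± 0.09 in HBL1. PRKCSH was close to 0 at 3 and 6 h (0.03 and 0.08) and 0.66 at 24 h in TMD8 and 0.76 in HBL1.

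Some NF-kB and immediate early genes differed between the lines. In HBL1, 1 of 39 NF-kB targets was called higher and 3 lower (median 0.04). Of 26 immediate early and ERK feedback genes, 8 were called lower there and none higher (median -0.46). The difference TMD8 minus HBL1 was called for 121 genes (0.872%), 104 of them (0.749%) in the direction of a higher value in TMD8. Among these 104 were 7 of 39 NF-kB targets and 2 of 26 immediate early and ERK feedback genes (EGR2 and DUSP2). No member of either list was called in the other direction. CD83 was higher with NGI-1 in TMD8 (1.47) and lower in HBL1 (-0.76 ± 0.17), and the difference was 2.23 ± 0.28 (adjusted p 3.1e-06). DUSP2 was 1.75 in TMD8 and -1.28 ± 0.19 in HBL1 (difference 3.02 ± 0.34, adjusted p 3.3e-07), and TNF was 1.51 and -1.37 ± 0.38 (difference 2.88 ± 0.50, adjusted p 0.0006). EGR2 was -3.31 ± 0.61 in HBL1 (adjusted p of the difference 3.8e-05). Its low side had few reads in both lines. It was at 0.213 and 0 CPM with acalabrutinib in TMD8 and at 0.737 and 0 CPM with NGI-1 in HBL1. These 4 differences were called with any library left out, while the HBL1 calls of CD83 and TNF were each lost without any 1 of its 4 libraries. NFKBID was 0.40 ± 0.16 in HBL1 and CCL22 0.31 ± 0.49, neither called, and both differed between the lines (1.89 ± 0.26 and 4.37 ± 0.84). IFI30, a lysosomal thiol reductase, was not called in TMD8 (0.05 ± 0.09) and lower with NGI-1 in HBL1 (-1.24), and the smallest adjusted p of the difference between lines was its own (1.29 ± 0.12, 1e-08). RILPL2 was 0.46 ± 0.09 in TMD8 and -0.67 in HBL1 (difference 1.13 ± 0.12). The contrast for CCL22 also grew with time in TMD8. It was 0.41 at 3 h, 1.09 at 6 h and 4.68 at 24 h (24 h minus 3 h 4.27 ± 0.69, adjusted p 0.001). The level of CCL22 itself fell with both compounds. With NGI-1 it went from 47.4 and 53.7 CPM at 3 h to 20.9 and 18.6 CPM at 24 h. With acalabrutinib it went from 41.7 and 34.4 CPM to 0.640 and 0.883 CPM.

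**Figure D5:**
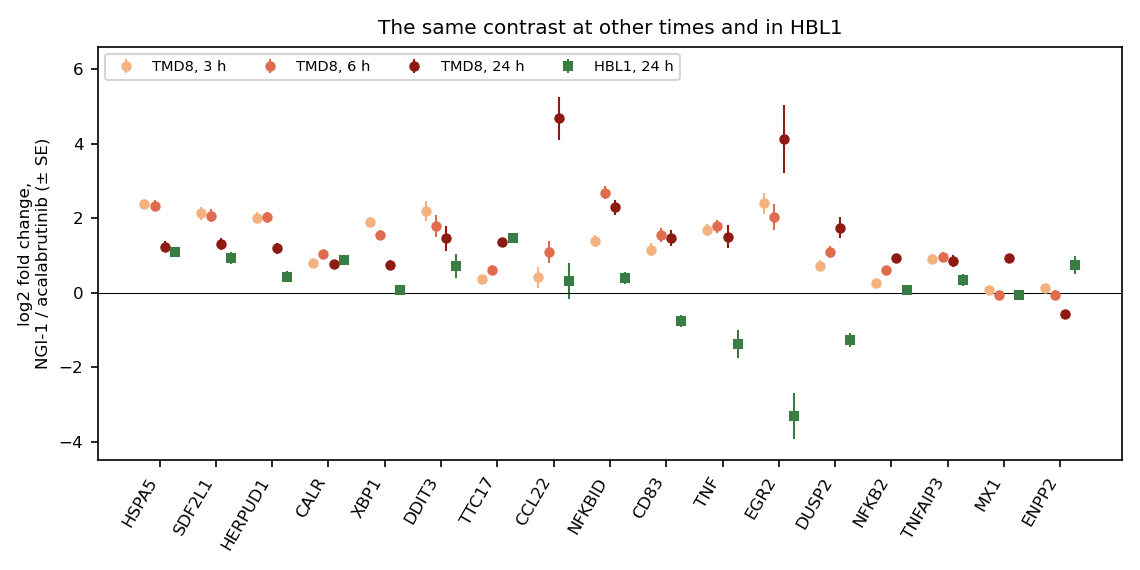
Log2 fold change of NGI-1 over acalabrutinib (y axis, points with standard errors) for 17 named genes (x axis) in TMD8 at 3, 6 and 24 h (light to dark red circles) and in HBL1 at 24 h (green squares). HSPA5 and XBP1 decline from 3 to 24 h, CCL22 and TTC17 increase, and CD83, TNF, EGR2 and DUSP2 lie above 0 in TMD8 and below 0 in HBL1.

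Interferon-stimulated genes showed no call at 3 or 6 h in TMD8 (medians 0.05 and 0.04, with 4 and 2 of 33 at an unadjusted p under 0.05 and none called by DESeq2) and 1 higher and 1 lower in HBL1 (median -0.02). MX1 was 0.07 at 3 h, -0.06 at 6 h and 0.92 at 24 h in TMD8, and -0.07 in HBL1. The differences for MX1 were 0.86 ± 0.16 between 24 and 3 h (adjusted p 0.0048) and 0.99 ± 0.16 between the lines (adjusted p 0.00024). The first was lost without NGI-1 replicate 1 or acalabrutinib replicate 2 at 24 h or replicate 2 of either compound at 3 h, and the second held with any library left out. ENPP2 was lower with NGI-1 in TMD8 (-0.58) and 0.74 ± 0.25 in HBL1. Its level in HBL1 was low, at 3.79 and 3.70 CPM with NGI-1 and 2.09 and 2.37 CPM with acalabrutinib. The difference between the lines was -1.33 ± 0.27 (adjusted p 0.0045, lost without NGI-1 or acalabrutinib replicate 1 of HBL1).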

How the data were processed

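RNA-seq of 48 libraries in 24 groups of 2 was analysed. The deposited values are whole-number read counts per gene, which the authors made with HTSeq on hg19, per the submitters' processing notes; the aligner and the versions are not given in the sources used here, nor is whether counting used strand. The table holds 25066 genes and a total, which was left out. Genes without an ID (3449) held 0.815% of reads and were kept, and 27 symbols that had turned into dates were restored by their ID. Library totals were 7165377 to 11999050.

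Counts were fitted with edgeR 4.0.16 in R 4.3.3 over all 24 groups (TMM scaling, filterByExpr, quasi-likelihood F test, 24 residual degrees of freedom, common dispersion 0.00539), leaving 13881 genes, and p-values were adjusted by Benjamini-Hochberg within each comparison, with 0.05 as the threshold. CPM values are TMM-scaled, and log2 CPM values use a prior count of 2. Log2 fold changes are those of the edgeR fit, and standard errors come from the F statistic. The script was tested on simulated data. Alternatives were RLE scaling, no filter and a stricter filter, DESeq2 1.42.0, fits of 1 line or of the compared groups alone, replicate blocks, and each library left out. With a library left out, the lone library of its group was assumed to vary like the other groups.

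The comparison, the 31 gene lists and the rules were chosen with earlier results of these data known. Named genes were the 14 per direction with the largest change (called, mean of at least 5 CPM, no overlap between groups), up to 3 per list and direction, 25 fixed by name, 4 per direction for the difference between lines and between times, up to 6 per direction called in opposite directions against DMSO, and up to 3 per direction called for 1 compound with the other within 0.1 (log2) of DMSO. Other called list members are named only with their list, apart from those in the next sentence. HSP90B1, PDIA2, TNFAIP3, ATF5, WARS, SLC7A5, VLDLR, LTB and CXCL10 were given values, and the HSPA5 promoter was printed, after their values were seen. Promoters and start sites are from RefSeq (GRCh38.p14), matched by gene ID, while counts rest on hg19, so no count was tied to a coordinate. A gene that the rule names is not reported here.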

Additional observations from a re-analysis of the deposited data

Results flagged for a closer look

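The contrast of NGI-1 with acalabrutinib at 24 h differed between TMD8 and HBL1 for 121 genes by edgeR's test of the difference itself (TMD8 minus HBL1, log2). Among NF-kB and receptor-induced genes the differences were EGR2 7.44, CCL22 4.37, TNF 2.88, IL4I1 2.68, DUSP2 3.02, CD83 2.23, NFKBID 1.89, EBI3 1.72 and NFKB2 0.88. The EGR2 value (± 1.08) rests on few reads with acalabrutinib in TMD8 and with NGI-1 in HBL1. For B cell and plasma cell genes they were SLAMF7 1.06, CXCR5 0.78, BATF 0.77, XBP1 0.68 and PIM2 0.58, and for interferon-stimulated genes EPSTI1 1.06 and MX1 0.99. Other genes with a higher contrast in TMD8 were C3orf37 3.71, LGALS3 1.58, KIF26B 1.55, IFI30 1.29, RILPL2 1.13 and CARS 0.54. The contrast was lower in TMD8 than in HBL1 for ENPP2 -1.33, ALOX5 -1.18, RCBTB2 -0.84, ASPM -0.65, CDC25B -0.56 and KNTC1 -0.50. These differences were called with each of the 8 libraries left out in turn for CARS, LGALS3, CCL22, NFKBID, TNF, CD83, NFKB2, EGR2, DUSP2, SLAMF7, MX1, IFI30 and RILPL2, and each of the others lost its call without 2 or more of the 8.

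Within TMD8 the contrast differed between 24 and 3 h for 19 genes by the same kind of test (24 h minus 3 h). Smaller at 24 h were XBP1 at -1.17, HSPA5 at -1.15, ARRDC3 at -1.14 and ENPP2 at -0.72. Larger at 24 h were CCL22 at 4.27, EBI3 at 1.93, TTC17 at 0.99, ASMT at 0.91, MX1 at 0.86, SLC38A5 at 0.79, NFKB2 at 0.69, PRKCSH at 0.63 and CARS at 0.49. HSPA5, XBP1, TTC17, CCL22 and SLC38A5 were called with each of the 8 libraries left out in turn. PRKCSH lost its call without NGI-1 replicate 1 at 24 h, and the other 7 named here lost theirs without 3 or more libraries.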

How the results depend on the processing

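The 182 calls between the compounds became 329 with no filter on low counts, and 187 to 265 with RLE scaling, a stricter filter, DESeq2 or fits of fewer groups. Without 1 library they were 90 to 132. In the other comparisons the ranges without 1 library were 162 to 229 in HBL1 (442 in all), 57 to 109 for TMD8 minus HBL1 (121), 61 to 99 at 3 h (139), 193 to 280 at 6 h (471) and 7 to 21 for 24 h minus 3 h (19). With no filter the difference between lines had 221 calls and that between times 81, and the latter had 36 with DESeq2 and 47 in TMD8 alone. None of the 182 genes called between the compounds changed direction in any setting that tested it. Named genes that were not called were not followed for direction. The fit of the compared groups alone tested 180 of the 182 genes, of which 151 were still called and 29 were not. Among the named genes ERO1LB, ALG3, SPCS3, STAT3, MBTPS1 and NAIP were not called there.

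Only 2 replicate numbers exist and nothing in the labels ties them to a shared culture or day, so they were not treated as pairs (correlation of the replicate differences of NGI-1 and acalabrutinib 0.12). Across all groups of a line and time these correlations ran from 0.05 to 0.12 in TMD8 at 3 and 6 h, from 0.09 to 0.30 in TMD8 at 24 h and from 0.12 to 0.24 in HBL1, a hint from the data of shared deviations. A replicate block over all libraries gave 264 calls, 199 for the difference between lines and 40 for that between times. With a replicate block within each line and time the contrast had 751 calls, 531 higher and 220 lower against 156 and 26, and the other comparisons 1380 (HBL1), 704 (lines), 522 (3 h), 1169 (6 h) and 296 (times). All 182 genes were among the calls of both block fits.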
